A study of Drosophila melanogaster with 3 samples.

Results

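The integrins of Drosophila melanogaster and the proteins that link them to actin were followed through 10 genes chosen by name. The members were mys, mew, if and scb, which encode integrin subunits, and rhea, Ilk, stck, parvin, Vinc and Zasp52, which encode proteins of the inner face of the adhesion site. A feature of the array counted for a member when the platform annotation gave it exactly 1 gene symbol, equal to that of the member. All 10 members had features of their own, 21 in total, among 10805 genes and 17329 features with 1 gene.

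The measured tissue was the ovary of females about 7 days old. In the mutant samples the germ line came from pole cells of sva53 embryos, laid by females whose germline clones were homozygous for sva53[M1] (FLP/FRT/DFS system), and each of the 3 mutant samples held ovaries of 2 pairs from its own experiment. In the control sample the germ line came from pole cells of sva53/+ embryos, and 1 RNA from 3 pairs of ovaries served on all 3 arrays as a common reference. Both kinds of pole cells were moved into host embryos from osk-homozygous females, whose embryos are known to form no pole cells, so the soma (follicle cells, muscle and the rest) was of host origin in the mutant and in the control ovaries alike. Each array set 1 mutant pool (Cy3) against the control RNA (Cy5), so a pool cannot be told apart from its array.

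An integrin is a pair of an alpha and a beta subunit that spans the plasma membrane, binds extracellular matrix outside the cell and couples to actin inside it. Talin binds the tail of the beta subunit, and the complex of Ilk, PINCH and Parvin, vinculin and the Zasp proteins strengthen the link to actin. In the ovary, integrins are known from the basal side of the follicle cells, where these rest on the basement membrane and migrate over it, and from the muscle sheath around the ovarioles.

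Every value below is a log2 ratio of mutant over control. Which dye stands on top of the deposited ratio is not stated in the labels. The direction was taken from the habit of the software, red over green, and is only likely; with the other numerator every sign turns. A ratio carries no level of either channel, so neither the abundance of these mRNAs nor the presence of ovary markers could be read. In such whole-organ RNA, fewer cells of a type and less RNA per cell cannot be told apart. Over features, the log2 ratios had an SD of 0.49, 0.35 and 0.34 on arrays 1, 2 and 3.

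None of the 10 members passed an adjusted p under 0.05 in limma, where 13.9% of the 15415 tested genes and unnamed features did. At an unadjusted p under 0.05 in limma, 7 of the 10 passed, against 36.3% of all features. The integrin subunits, talin and PINCH read below 0 on all 3 arrays, Ilk and Parvin above 0 on all 3, vinculin close to 0 and Zasp52 on either side of it. No member reached a mean change of 1.5-fold. The median of the 10 member means was -0.19, while that of all named genes was -0.003. One sign on all 3 arrays was seen in 9 of 10 members, against 58.9% of named genes. Of these members 6 were below 0, against 29.7% of named genes, and 3 above 0, against 29.2%. These signs are those of averages over features. Vinc, counted above 0, averaged features of opposite sign, and mys and rhea each had a feature that changed sign between arrays. Because all arrays share the control RNA and the dye orientation, one sign on 3 arrays is not 3 independent observations.

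**Figure D1:**
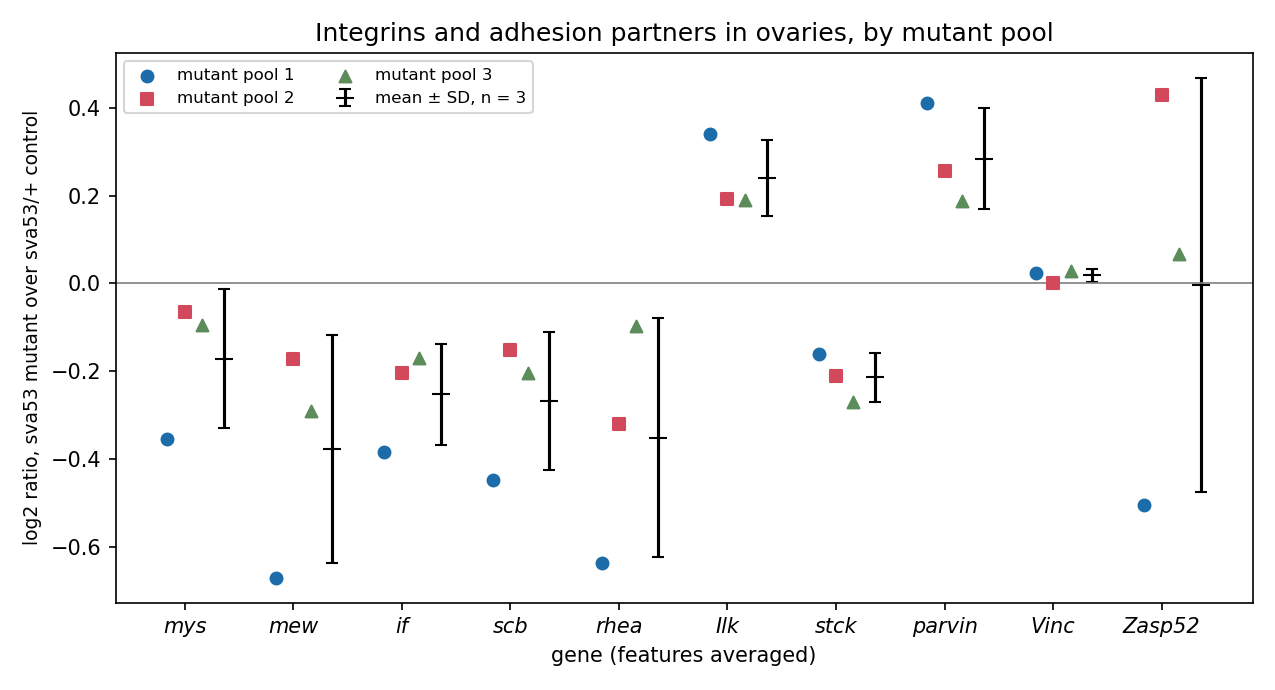
Log2 ratios of sva53 mutant over sva53/+ control ovaries (vertical axis) for the 10 genes (horizontal axis), with 1 point for each mutant pool and the mean ± SD over the 3 pools beside them. The integrin subunits mys, mew, if and scb, and rhea and stck, lie below 0 in each pool, Ilk and parvin lie above 0 in each, and Zasp52 runs between -0.50 and 0.43.

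The beta subunit comes first, since it is shared by the main alpha subunits of the fly. For mys, which encodes betaPS, the log2 ratios were -0.35, -0.06 and -0.10 on arrays 1, 2 and 3. The first pool was the lowest, and the other pools lay close to 0. The average of -0.17 ± 0.16 (SD, n = 3) missed the threshold (adjusted p 0.213 with limma). As a linear ratio of mutant over control, its 95% interval ran from 0.761 to 1.04 and covers the spread between pools only. The features of mys disagreed: feature 11636 read -0.55, -0.32 and -0.24, while feature 6513 read -0.16, 0.19 and 0.05. Their means were -0.37 and 0.03.

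Of the alpha subunits, mew encodes alphaPS1, which is known as a laminin receptor. It read -0.67, -0.17 and -0.29 on arrays 1, 2 and 3, the lowest mean among the 10 members at -0.38 ± 0.26 (SD, n = 3; 1.30-fold lower in the mutant; adjusted p 0.109 with limma). All 3 of its features had means below 0, from -0.56 to -0.25. On array 1 it stood at the 5.55th percentile of named genes, on array 2 at the 23.8th and on array 3 at the 12.0th. With the other numerator mew would have the highest mean of the members, at the 94.5th, 76.2nd and 88.0th percentiles.

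The gene if encodes alphaPS2, the receptor for tiggrin and other ligands with an RGD motif. It read -0.38, -0.20 and -0.17, and its mean was -0.25 ± 0.11 (SD, n = 3; adjusted p 0.0795 with limma). Its features gave means of -0.27 and -0.24, the closest agreement among the members. The gene scb encodes alphaPS3, the subunit known from border cells and from dorsal closure. It read -0.45, -0.15 and -0.20, with a mean of -0.27 ± 0.16 (SD, n = 3; adjusted p 0.0993 with limma) and features at -0.36 and -0.18. In each of these alpha subunits, as in mys, pool 1 had the lowest value and the other pools lay closer to each other than to it.

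The talin gene rhea had the widest range over arrays of the members that kept one sign. Arrays 1, 2 and 3 gave -0.64, -0.32 and -0.10, on average -0.35 ± 0.27 (SD, n = 3), which missed the threshold (adjusted p 0.131 with limma). Nearly all of that average came from 1 feature. Feature 2743 read -1.01, -0.68 and -0.32, while feature 16670 read -0.26, 0.04 and 0.13, and the means of these features differed by 0.65. Among the 4814 genes with 2 features the median gap between feature means was 0.149 and the 90th percentile was 0.487, so the gap of rhea was wider than in most genes.

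The complex of Ilk, PINCH and Parvin binds beta tails and actin as a unit, and its genes had opposite signs. For Ilk, the scaffold with a kinase-like fold, the log2 ratios were 0.34, 0.19 and 0.19, with a mean of 0.24 ± 0.09 (SD, n = 3; 1.18-fold; adjusted p 0.0690 with limma). For parvin, which encodes the actin-binding partner of Ilk, they were 0.41, 0.26 and 0.19, with a mean of 0.28 ± 0.11 (SD, n = 3; 1.22-fold; adjusted p 0.0651 with limma). Both genes were above 0 on every array and in every one of their features, from 0.19 to 0.29 in Ilk and from 0.24 to 0.33 in parvin.

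The gene stck encodes PINCH, the LIM-domain protein that binds Ilk. It read -0.16, -0.21 and -0.27, below 0 in each pool, and its mean was -0.21 ± 0.06 (SD, n = 3; adjusted p 0.0683 with limma). Feature 21554 read -0.29, -0.34 and -0.37 and passed on its own (adjusted p 0.0379 with limma over single features), while feature 10994, at -0.03, -0.08 and -0.17, did not. On every array Ilk and parvin lay above stck. Ilk minus stck was 0.50, 0.40 and 0.46, with a mean of 0.45 ± 0.05 (SD, n = 3), and parvin minus stck was 0.57, 0.47 and 0.46, with a mean of 0.50 ± 0.06. Ilk minus parvin was -0.07, -0.06 and 0.003. An exact sign-flip test over 3 arrays cannot go below p = 0.25, and gave 0.25 for both differences from stck and 0.5 for Ilk against parvin (2-sided; 0.278 and 0.5 after adjustment over 10 differences tested). Each difference from stck was larger than its own SD, and 0.25 is the smallest p this test can give. The gene ics, for the Rsu1 homologue known to bind PINCH, read 0.13, 0.12 and 0.11 and did not pass (adjusted p 0.156 with limma).

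The other differences in that family were tested the same way. Mew minus mys was -0.32, -0.11 and -0.19, if minus mys averaged -0.08 ± 0.05, scb minus mys averaged -0.10 ± 0.01 and rhea minus mys averaged -0.18 ± 0.16 (SD, n = 3; exact p = 0.25 each). The order of the subunits from lowest to highest mean was mew, scb, if and mys (turned with the other numerator). Of the neighbours in it, if and mys were compared as above, and mew with scb and scb with if were not tested.

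Vinculin binds talin and actin where an adhesion site is under tension. Averaged over features, Vinc read 0.02, 0.002 and 0.03 on arrays 1, 2 and 3, a mean of 0.02 ± 0.01 (SD, n = 3; adjusted p 0.80 with limma). Its features contradicted each other. Feature 14246 read -0.33, -0.28 and -0.25 (adjusted p 0.0425 with limma over single features), and feature 20943 read 0.37, 0.28 and 0.31 (adjusted p 0.0389). Each passed on its own, in opposite directions and with little spread over the pools. Their difference was 0.70, 0.56 and 0.56 on the arrays, 0.61 on average, and lies above the 90th percentile of gaps given above. The annotation does not say which part of the transcript each feature matches, so no direction was assigned to Vinc. In all, 4 of the 21 member features passed when single features were tested, 1 each of stck and parvin and both of Vinc, against 15.2% of all 21939 single features.

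**Figure D2:**
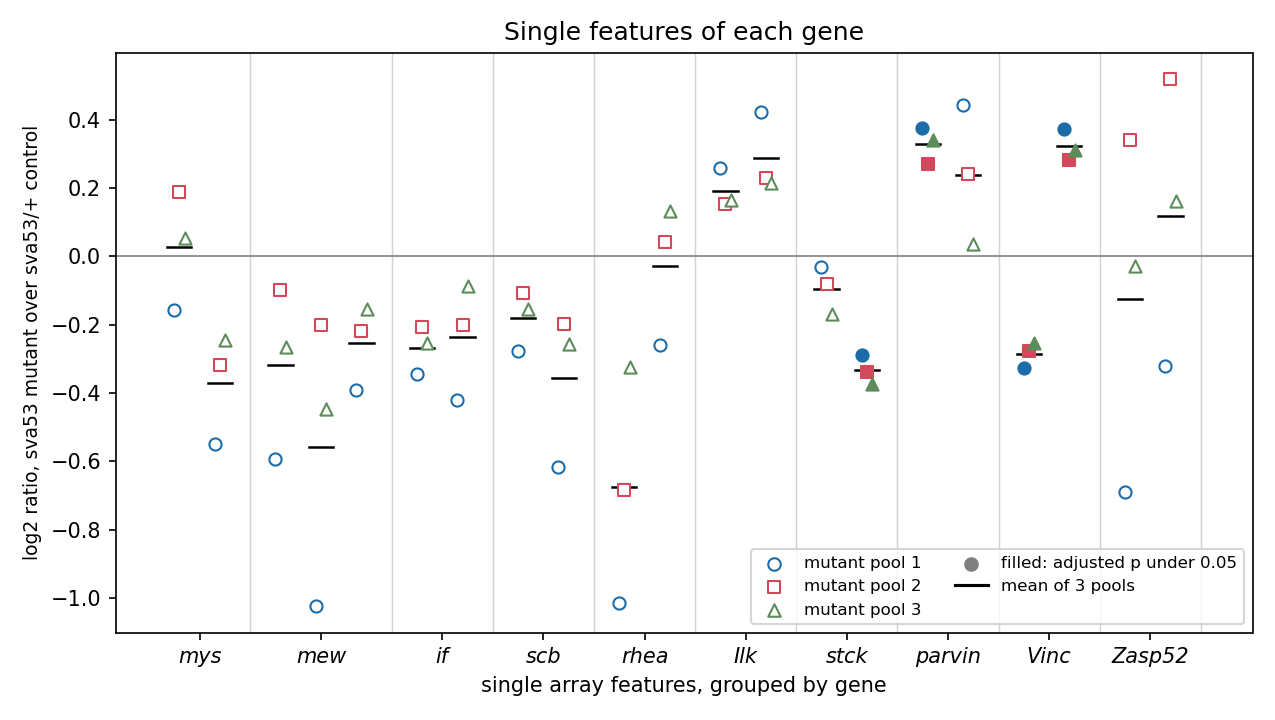
Log2 ratios of sva53 mutant over sva53/+ control (vertical axis) for each single feature of the 10 genes (horizontal axis), with 1 point for each mutant pool, a bar at the mean and filled points where the feature passed an adjusted p under 0.05. The features of Vinc stand on opposite sides of 0 in each pool. Those of mys and Zasp52 have means on opposite sides of 0, and those of rhea differ in size.

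The PDZ and LIM protein gene Zasp52, known from muscle Z-discs and from integrin adhesion sites, was the member that varied most between pools. It read -0.50, 0.43 and 0.07, with a mean of -0.003 ± 0.47 (SD, n = 3; adjusted p 0.994 with limma), and the 95% interval from -0.56 to 0.56 does not bound its change closely. Both features showed the same order of pools, -0.69, 0.34 and -0.03 in one and -0.32, 0.52 and 0.16 in the other. Leaving out array 1 gave 0.25 for it, and leaving out array 2 gave -0.22. The muscle list had a median of -0.001, 0.27 and 0.14 on arrays 1, 2 and 3, so pool 1 was lowest and pool 2 highest there too. The medians of the hemocyte and fat body lists, given below, had the same order of pools, so it was not particular to muscle. In the muscle list 0 of 16 measured genes passed, where 13.4% of named genes did, and 11 means lay above 0 and 5 below. The list ran from -0.22 (Act79B) to 0.36 (Argk1). Its part in the values of Zasp52 was not tested.

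Array 1 held the largest size of change for 8 of the 10 members, against 49.6% of named genes. After the arrays were scaled to one median absolute deviation, mew read -0.57, -0.18 and -0.33 and mys -0.30, -0.07 and -0.11, so pool 1 remained the lowest. Markers of follicle cells, the host cells that carry basal integrins, had list medians of -0.48, -0.09 and -0.06 on arrays 1, 2 and 3. Of 17 measured genes of that list 2 passed higher, sn (0.57) and neur (0.45), against 6.36% of named genes. Whole-organ RNA does not show whether sn and neur were read from follicle cells or from the germ line. Another 3 passed lower, against 7.04%, peb (-0.81), cas (-0.59) and ct (-0.38). With their features of smallest SD cas (-0.23) and ct (0.11) were not called, and ct was not called with the edge of the grid kept (adjusted p 0.0509 with limma). The medians of the integrin subunit list were -0.35, -0.17 and -0.17. Both lists were therefore lowest in pool 1, and the part of follicle cell content in the integrin ratios was not tested. Germ line markers had medians of -0.15, -0.04 and 0.03 on the arrays. Of 12 measured germ line genes 2 passed lower, bgcn (-1.44) and c(3)G (-0.37), against 7.04% of named genes, and 0 higher, against 6.36%.

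The rest of the pathway was taken from lists of other subunits, linkers, signalling partners and ligands. Of 7 integrin subunits on the array 0 passed, where 13.4% of named genes did, and 6 means lay below 0. Among those that are not members, ItgaPS5, an alpha subunit related to alphaPS3, had the lowest value: -0.28, -0.54 and -0.74, with a mean of -0.52 ± 0.23 (SD, n = 3; 1 feature; adjusted p 0.0543 with limma). Its lowest pool was the third, as in stck, whereas mys, mew, if and scb were lowest in the first. It was called lower with exact zeros as missing (adjusted p 0.0496 with limma) and with grid trends removed (0.0486). The same held with array weights (0.0129) and in the fit on features of smallest SD (0.0471). ItgaPS4 read -0.12, -0.21 and 0.10, and Itgbn, for the second beta subunit of the fly, read 0.38, 0.01 and 0.002, the only subunit mean above 0.

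Of 15 measured linkers, the 6 members among them included, 0 passed, where 13.4% of named genes did. Of the linker means 9 lay above 0 and 6 below. The highest was Zasp67, at 0.43, 1.63 and 0.37 on arrays 1, 2 and 3, with the second array far above the others (mean 0.81 ± 0.71, SD, n = 3). The tensin gene by read 0.82, 0.24 and 0.64 (adjusted p 0.0664 with limma, and 0.0492 with grid trends removed), with features at 0.91 and 0.22. The kindlin gene Fit2, whose product binds beta tails together with talin, read 0.57, 0.38 and 0.15 (adjusted p 0.0843). The gene wech, for a linker between talin and Ilk, averaged 0.19, the zyxin gene Zyx -0.27, CAP, for a vinculin-binding protein, -0.19, the paxillin gene Pax -0.03 and Zasp66, a relative of Zasp52, 0.08. Array weights, which called 37.7% of all features, also called linkers that are not members. These were Fit2 and Zasp67 higher and Zyx lower (adjusted p 0.0222, 0.0311 and 0.0305 with limma). Talin and kindlin, the proteins that activate integrins, had genes with opposite signs on all 3 arrays, but neither value passed, and rhea feature 16670 had the sign of Fit2 on arrays 2 and 3.

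Of 6 measured signalling partners 0 passed, where 13.4% of named genes did. The adaptor gene p130CAS read -0.88, -0.40 and -0.38, with a mean of -0.55 ± 0.28 (SD, n = 3; adjusted p 0.0640 with limma, and 0.0348 with scaled arrays). The focal adhesion kinase gene Fak read 0.23, 0.18 and 0.26, with a mean of 0.22 ± 0.04 (SD, n = 3; adjusted p 0.0597) and features at 0.21 and 0.23. Crk, for an adaptor that binds p130CAS, read 0.17, 0.17 and 0.18 (adjusted p 0.0816). The kinase genes Pak, sktl and PIP5K59B averaged -0.02, 0.14 and -0.02.

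The matrix ligands were set beside their receptors. Of 6 measured ligand genes 2 passed, both lower, where 7.04% of named genes did so. The laminin gene LanA read -1.76, -0.92 and -0.82 on arrays 1, 2 and 3, with features at -1.30 and -1.04, and LanB2 read -0.92, -0.63 and -0.58, with features at -0.89 and -0.53 (adjusted p 0.0486 and 0.0346 with limma). The other laminin alpha gene, wb, read -0.15, 0.04 and 0.22, and the ligand genes Tig, Tsp and mspo averaged -0.06, -0.11 and -0.22 and did not pass. Of 7 other basement membrane genes 3 passed lower, Col4a1 (-1.53, -0.77 and -0.97), vkg (-1.52, -0.75 and -0.85) and SPARC (-1.27, -0.68 and -0.82), while the matrix receptor gene Dg, for dystroglycan, averaged -0.14, Ppn -0.07, Ndg 0.01 and Pxn 0.10. The laminin receptor gene mew lay above LanA on every array. Mew minus LanA was 1.09, 0.75 and 0.53, with a mean of 0.79 ± 0.28, and mew minus LanB2 averaged 0.34 ± 0.11 (SD, n = 3). The exact sign-flip p was 0.25 for each, the smallest this test can give with 3 arrays. Calls among these genes were close to the threshold: LanA was not called with a robust prior (adjusted p 0.0510 with limma) or with the edge of the grid kept (0.0567), vkg was not called with the edge kept (0.0509), and Col4a1 lost its call when only its least variable feature was kept (-0.78, adjusted p 0.0523). None of the calls of this paragraph held at an adjusted p under 0.01, at a fold of 1.5 or with any 1 array left out.

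**Figure D3:**
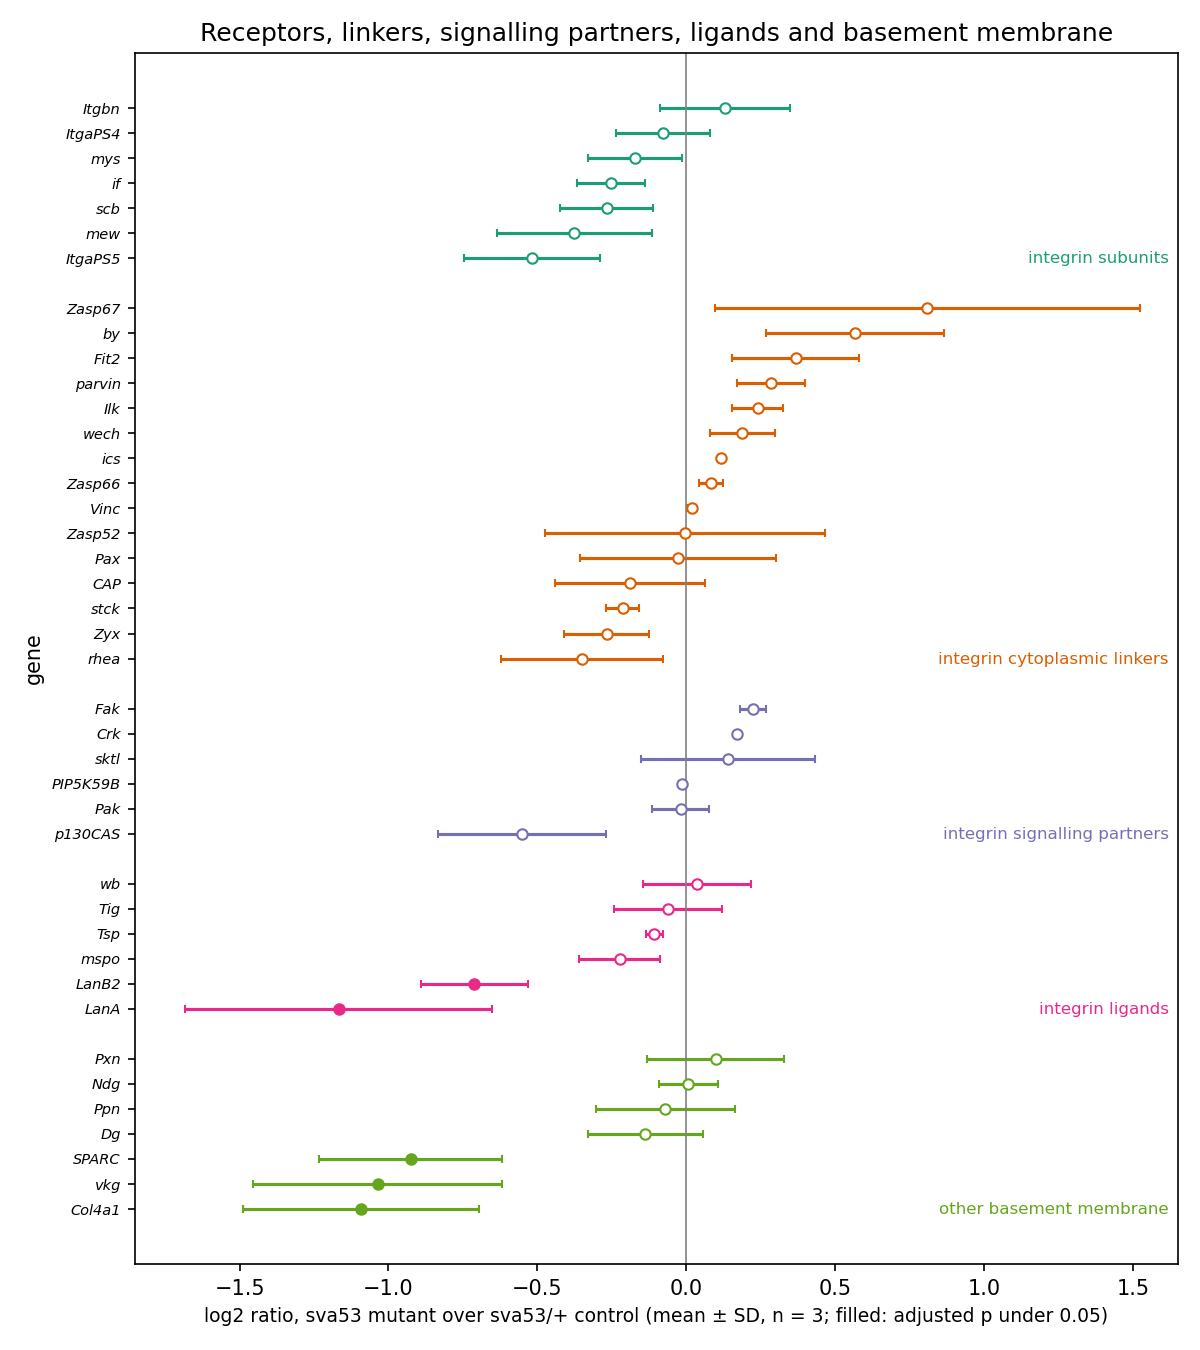
Mean log2 ratio of sva53 mutant over sva53/+ control with SD over 3 pools (horizontal axis) for measured integrin subunits, linkers, signalling partners, ligands and other basement membrane genes (rows), filled where the adjusted p was under 0.05. The filled points are LanA, LanB2, Col4a1, vkg and SPARC, all below 0, and no subunit, linker or signalling partner is filled. None of these calls held at an adjusted p under 0.01, at a fold of 1.5 or with any 1 array left out. Those of LanA, vkg and Col4a1 were also lost under some other settings.

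Other tissues that an ovary dissection could hold were followed through their markers. Of 11 hemocyte genes 0 passed, where 13.4% of named genes did. The hemocyte median was -0.18, 0.15 and 0.10 on arrays 1, 2 and 3, and the smallest p were those of Pvr (-0.36) and Sr-CI (0.52). Of 9 fat body genes 3 passed lower, Pepck1 (-1.80), Lsd-1 (-1.71) and Obp99b (-1.52), where 7.04% of named genes did, and 0 passed higher, with medians of -0.28, 0.05 and -0.001. With the edge of the grid kept Obp99b was not called (adjusted p 0.0520 with limma). The medians of these lists too were lowest in pool 1, as was the median of the members. Single members differed: Ilk and parvin were highest in pool 1, stck was lowest in pool 3 and Vinc in pool 2. The part of these lists in the member values was not tested.

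Adhesion through cadherins and septate junctions was followed through 14 measured genes, of which 2 passed higher, where 6.36% of named genes did, and 2 lower, where 7.04% did. The polarity genes dlg1 (0.39, 0.39 and 0.38 on the arrays) and baz (0.25, 0.24 and 0.29) rose, and sdt (-0.39, -0.27 and -0.27) and the N-cadherin gene CadN (-0.47, -0.35 and -0.59) fell (adjusted p 0.0346, 0.0456, 0.0442 and 0.0379 with limma, in that order). Features within these genes disagreed as well: those of dlg1 ran from -0.25 to 0.85 and those of sdt from -0.85 to 0.04. The features of baz stood at 0.47 and 0.06. CadN had one at -0.93 and one at -0.01, with which it was not called (feature of smallest SD). With exact zeros as missing, sdt was not called (adjusted p 0.0511 with limma). The E-cadherin gene shg read 0.13, 0.25 and 0.28 and alpha-Cat 0.40, 0.30 and 0.18, and neither passed (adjusted p 0.0741 and 0.0597 with limma). Array weights, under which 37.7% of all features passed, called both higher (adjusted p 0.0187 and 0.0171 with limma). Removing grid trends called shg (0.0466). Scaling the arrays called alpha-Cat (0.0411), and so did keeping only its least variable feature (0.0305). The list median was 0.07, against -0.19 for the integrin adhesion members; these medians were not compared by a test.

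Whether members were called depended on the settings of the fit, while signs turned in Vinc and Zasp52 among the 8 of 13 alternatives that moved the mean of a member. With arrays weighted by their quality, limma called 5 members, where it called 37.7% of all features: if, rhea and stck lower, and Ilk and parvin higher. With 1 feature kept for each gene, that of the smallest SD, it called 5 members, where it called 22.2% of features: mys, if, stck and Vinc lower, and parvin higher. With arrays scaled to one median absolute deviation it called Ilk and parvin, where it called 18.4% of features. The gene parvin was called in all 3 of these settings, and mew and scb in none.

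**Figure D4:**
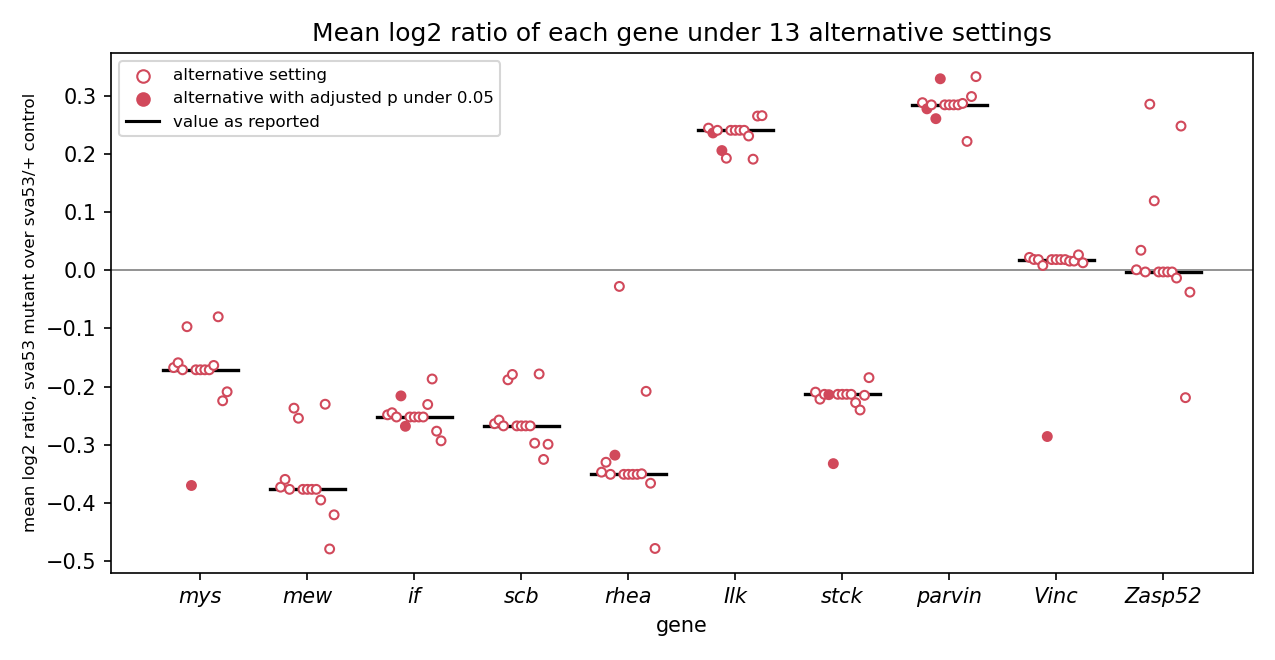
Mean log2 ratio of sva53 mutant over sva53/+ control (vertical axis) for each of the 10 genes (horizontal axis) under 13 alternative settings (points, filled where the adjusted p was under 0.05), with a bar at the value as reported. In 5 of the settings the means cannot move, since those change the test or rows other than the members; over the other 8, Ilk and parvin lie above 0, mys, mew, if, scb, rhea and stck below 0, and Zasp52 and Vinc on both sides.

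The named genes nearest to mys in log2 ratio over the 3 arrays were Pld3, Hsp60A and CG15673, at Euclidean distances of 0.019, 0.037 and 0.038. In all 1193 genes lay within 0.25 of mys, so its pattern over these arrays was a common one.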

How the data were processed

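The authors deposited 1 log10 ratio per feature for 22575 features on each of 3 Agilent arrays with 2 colours, made with Agilent Feature Extraction 7.1 per the submitters' processing notes. How background and dyes were treated is not given in the sources used here. Both signs, exact zeros and a minimum of -2 gave the log10 scale. Each sample started from 100 ng of total RNA, per the labels. Signs were turned and values rescaled to log2 of mutant over control.

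The 636 unannotated features at the grid edge were dropped, and features of 1 gene averaged, which left 15415 rows. The 10 members matched RefSeq by gene identifier. The test was limma 3.58.1 in R 4.3.3 (intercept only, eBayes, 2-sided, Benjamini-Hochberg over all rows). It was tried on simulated data with independent arrays, which does not cover errors shared through the control RNA or the dyes. The test leaves out the spread of the control, which is 1 sample. A dye bias does not cancel, and the number of arrays limits the precision.

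The members and lists were chosen with earlier results of these data known. Named were all members, measured genes of the subunit, linker, signalling, ligand and basement membrane lists, up to 3 highest and 3 lowest called genes of other lists (or the 2 of smallest p) and the 3 genes nearest to mys; shg and alpha-Cat were added once their values were known. Other settings tried were centring, scaling, a robust prior, array weights, single features, the feature of smallest SD, exact zeros as missing, stricter thresholds, the grid edge, grid trends and leaving out each array.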

Additional observations from a re-analysis of the deposited data

How the results depend on the processing

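The means of mys, mew, if, scb, rhea and stck stayed below 0 and those of Ilk and parvin above 0 under the 8 of 13 alternatives that moved the mean of a member; the other 5 could not change a sign. Calls did not stay. The fit with array weights called 5804 features (37.7%) and 5 members: if (-0.22), rhea (-0.32), Ilk (0.21), stck (-0.21) and parvin (0.26). With only the feature of smallest SD kept, 3418 features (22.2%) and 5 members were called: mys (-0.37), if (-0.27), stck (-0.33), parvin (0.33) and Vinc, which then read -0.29, the opposite sign. With scaled arrays 2 members were called (18.4% of features), Ilk (0.24) and parvin (0.28). Tested as single features, 3338 of 21939 passed (15.2%), among them 4 of 21 member features and 41 of 258 features of the wider lists. With features averaged, 19 of 110 genes of those lists passed, against 13.9% of all rows. Array weights called 45 of those 110 genes, against 37.7% of all rows. Zasp52 turned its sign with centred arrays (0.00067), scaled arrays (0.034), array weights (0.29), the feature of smallest SD (0.12) and without array 1 (0.25). An adjusted p under 0.01 left 0 calls and a fold of 1.5 left 15, of which 0 in the wider lists. Leaving out any 1 array left 0 calls with limma over all features, among members and in the wider lists, with 3277 to 4710 features at an unadjusted p under 0.05 against 5588; fewer arrays leave fewer degrees of freedom. Over those 3 settings mys ranged from -0.22 to -0.08, mew from -0.48 to -0.23, if from -0.29 to -0.19, scb from -0.33 to -0.18, rhea from -0.48 to -0.21, Ilk from 0.19 to 0.27, stck from -0.24 to -0.18, parvin from 0.22 to 0.33, Vinc from 0.01 to 0.03 and Zasp52 from -0.22 to 0.25. The causes of these moves were not tested. No paired analysis was possible because there is 1 group of samples against 1 common reference. If the numerator of the deposited ratio was Cy3, all signs turn.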
